A study of Mus musculus with 15 samples.

Results

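The Notch pathway genes Notch1, Notch2, Dll1, Dll3, Jag1, Lfng, Rbpj, Hes1, Hes5 and Hey1, were followed in neural stem cells treated with a ligand of the death receptor CD95. All probe sets carrying 1 of these 10 symbols on the array were taken. That gave 16 of the 22690 probe sets in the deposited table, for 10 of the 12393 genes with a probe set of their own. The cells were neural stem cells of 6 week old female mice of the strain given as C57/B16, grown as primary neurospheres, which are floating clusters of dividing precursors. The 15 Affymetrix arrays fell into 4 groups: total RNA of control cultures (n = 4), total RNA of cultures given CD95L-T4 for 48 h (n = 4), polysomal RNA of control cultures (n = 4) and polysomal RNA of CD95L-T4 cultures (n = 3). CD95L-T4 is a trimeric form of CD95 ligand, and polysomal RNA is RNA recovered from transcripts that carry ribosomes. The sample titles call the replicates biological.

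Notch is a receptor that signals between touching cells. Ligands of the Delta and Jagged families on a neighbouring cell bind it, proteases then free its intracellular part, and this part joins the DNA-binding protein RBPJ in the nucleus and turns on genes of the Hes and Hey families. In neural stem cells these repressors hold back the genes that start neuronal differentiation, and Notch signalling is known for keeping the cells in the undifferentiated state.

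The labelled cell type was checked against marker genes. Of the neural stem cell markers, Sox2 and Nes lay at percentiles 95.6 and 93.1 of mean signal over all probe sets and Prom1 at percentile 14.1, and 5 of 10 markers lay above the 80th percentile. All 6 microglial, all 6 endothelial and all 6 mesenchymal markers lay below the 50th percentile, as did 6 of 8 neuronal markers, 4 of 6 astrocyte markers, 5 of 8 markers of the oligodendrocyte lineage and both ependymal markers. In that lineage Olig1 and Olig2 were bright, at percentiles 99.3 and 96.5. In a bulk culture a smaller number of cells of a type and less RNA per cell cannot be told apart. The mean of the neural stem cell markers was 9.32 to 9.44 log2 units in control total, 9.34 to 9.43 in CD95L-T4 total, 8.99 to 9.09 in control polysomal and 9.03 to 9.23 in CD95L-T4 polysomal RNA, so it also differed between the fractions. Replicate 2 of CD95L-T4 polysomal RNA stood apart in its poly-A control transcripts, which averaged 9.10 log2 units against 6.92 to 8.35 in the other 14 arrays. Replicate 3 of the same group had the highest actin 3 prime minus 5 prime signal, a sign of RNA length, at 1.03 log2 units against 0.59 to 0.81 in the other polysomal arrays. Calls on the Notch genes that change without replicate 2 are given both ways. The CD95L-T4 differences of Hes5, Hes1, Lfng, Rbpj and Notch2 in polysomal RNA are also given without replicate 3.

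Where a promoter sequence was at hand, the 250 bases before the transcription start were read, because RBPJ acts on its targets through short DNA motifs. The sequences came from RefSeq on build GRCm38.p6, which held 10 promoters of 8 of the 10 genes; Hes1 and Hey1 were not among those matched. The letters searched were TGGGAA, the core of the RBPJ motif, on both strands (TTCCCA on the opposite one), and the longer GTGGGAA, which contains the core. Hes5, Lfng and Rbpj held the core, and Hes5 and Lfng are shown because they also held the longer form. A promoter of Rbpj, not shown, held the core on both strands as well, 149 and 65 bases before its start. The Hes5 promoter lies at chr4:154960673-154960922 on the plus strand and the Lfng promoter at chr5:140607091-140607340 on the plus strand. Capitals mark the core motif in either orientation.
Hes5: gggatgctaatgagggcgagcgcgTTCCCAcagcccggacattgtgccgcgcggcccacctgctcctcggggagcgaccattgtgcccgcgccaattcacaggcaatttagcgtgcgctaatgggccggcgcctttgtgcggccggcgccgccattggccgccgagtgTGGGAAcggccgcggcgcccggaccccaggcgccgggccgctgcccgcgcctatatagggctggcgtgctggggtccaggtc
Lfng: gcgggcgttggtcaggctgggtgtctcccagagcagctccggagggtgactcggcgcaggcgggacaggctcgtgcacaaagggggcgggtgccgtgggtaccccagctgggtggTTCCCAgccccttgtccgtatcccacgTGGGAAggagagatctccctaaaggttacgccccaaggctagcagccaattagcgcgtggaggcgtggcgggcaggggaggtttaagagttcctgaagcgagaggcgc
In Hes5 the matches began 82 bases before the start on the gene's own strand and 226 bases before it on the opposite strand. In Lfng they began 108 bases before the start on the same strand and 135 bases before it on the opposite one. The core was found in 21.6% of all 32851 promoter windows of this length, a match on both strands in 1.28%, and the longer form in 5.42%. A match describes the letters and is not a measured binding site.

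The first comparison asked how each Notch gene's RNA was divided between the polysomal and the total pool in untreated cells. The effector genes lay on the opposite side from the brighter probe sets of the receptors Notch1 and Notch2 and the ligand Jag1. The ligands Dll1 and Dll3 differed less, and in opposite directions. Hes1, Hes5 and Hey1 were 1.54-fold to 2.32-fold higher in polysomal than in total RNA on all 4 of their probe sets, while the main probe sets of Notch1, Notch2 and Jag1 were 2.34-fold to 2.65-fold lower. In limma, fitted to all 15 arrays with Benjamini-Hochberg adjustment over 22626 probe sets, 13 of the 16 member probe sets passed an adjusted p of 0.05, 5 higher and 8 lower. Over all probe sets 56.1% passed, 29.8% higher and 26.3% lower, so a called difference between the fractions was common on these arrays. The median difference was -0.21 log2 units over the 16 probe sets and 0.06 over all probe sets. Values of 13 of the 16 did not overlap between the groups, against 54.6% of all probe sets. The fractions were extracted by different methods, a column kit for total RNA and phenol and chloroform for polysomal RNA, and carry different molecule labels, so RNA fraction and extraction cannot be told apart. The 3 prime minus 5 prime signal of actin was 0.28 to 0.57 log2 units in total RNA and 0.59 to 1.03 in polysomal RNA. Its part in the differences, and that of the marker levels above, was not tested.

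**Figure D1:**
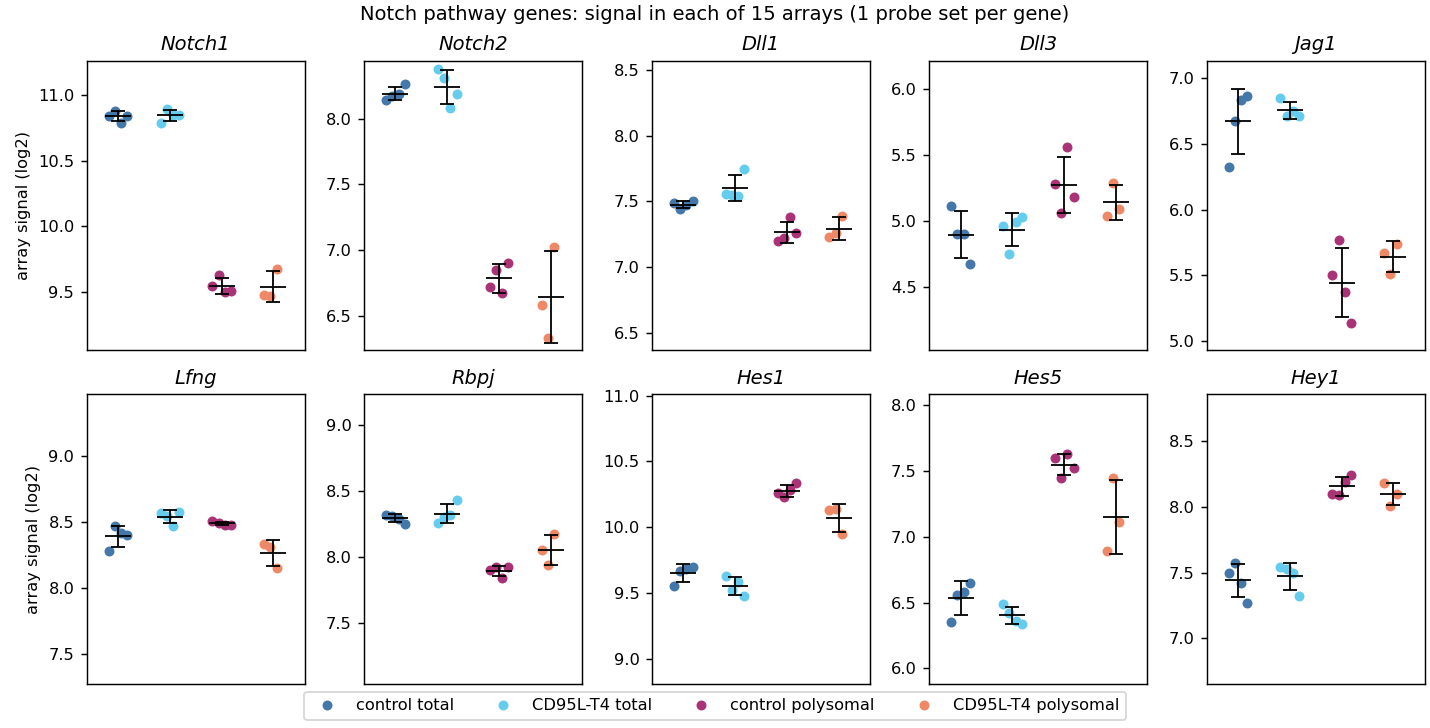
Signal of the brightest probe set of each of the 10 genes, in log2 units, in each of the 15 arrays, coloured by group; black bars are the group mean and SD, and every panel spans the same log2 range. Notch1, Notch2 and Jag1 sit lower in both polysomal groups, Hes1, Hes5 and Hey1 sit higher, and the CD95L-T4 and control arrays of a fraction lie close together.

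Notch1 encodes the main Notch receptor of neural precursors. On its brighter probe set, 1418634_at, the control total arrays read 10.84, 10.88, 10.79 and 10.84 log2 units, and the control polysomal arrays read 9.55, 9.63, 9.50 and 9.51. The groups were well apart, with each polysomal array more than a log2 unit below each total array. Notch1 fell by 1.29 ± 0.066 (SE) log2 units, or 2.45-fold, in polysomal against total RNA, with a limma adjusted p of 1.15e-10. Its other probe set, 1418633_at, moved the same way, from 8.48 ± 0.100 to 7.53 ± 0.085 (SD, n = 4 each), a 1.94-fold fall with a limma adjusted p of 3.94e-08.

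Notch2, a second receptor of the family, had the largest fall among the 16 probe sets. Probe set 1455556_at read 8.14, 8.17, 8.19 and 8.26 in control total and 6.72, 6.85, 6.67 and 6.90 in control polysomal RNA, again without overlap. The fall was 2.65-fold (log2 difference -1.41 ± 0.114, limma adjusted p 1.1e-08). The second probe set of Notch2, 1451889_at, showed none of this: it was dim, at percentile 29.7, and its means were 4.98 ± 0.076 and 4.97 ± 0.171, with a limma adjusted p of 0.958. The interval of its difference, -0.23 to 0.21 log2 units, did not reach the value of the brighter probe set.

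The ligands differed among themselves. Jag1, a ligand of the Jagged family, read 6.32, 6.67, 6.83 and 6.86 in control total RNA and 5.50, 5.77, 5.37 and 5.14 in control polysomal RNA on 1421106_at. All polysomal values lay below all total values, although the spread within each group, 0.248 and 0.263 (SD), was the widest of the 10 main probe sets in control cultures. The fall was 2.34-fold (limma adjusted p 1.91e-07), and the other probe set, 1421105_at, fell 1.48-fold (limma adjusted p 0.00125).

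Dll1, a Delta ligand made by cells that are beginning to differentiate, read 7.49, 7.44, 7.47 and 7.50 in control total and 7.20, 7.22, 7.38 and 7.26 in control polysomal RNA. The polysomal arrays were all lower, but by little, 1.16-fold (log2 difference -0.21 ± 0.070, limma adjusted p 0.0169). This call was lost when array medians were set equal (-0.12, adjusted p 0.17) and when all arrays were quantile normalised (-0.12, adjusted p 0.21). Dll3, a divergent Delta protein that acts within the cell on Notch rather than as an activating ligand, was the exception in direction. It read 5.11, 4.90, 4.90 and 4.67 in control total and 5.28, 5.06, 5.56 and 5.18 in control polysomal RNA, a 1.30-fold rise (limma adjusted p 0.00809). Its groups overlapped, and at percentile 30.7 it was among the dimmest of the 16 probe sets.

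Lfng encodes Lunatic fringe, a Golgi enzyme that adds sugars to Notch and so alters which ligands activate it. Its brighter probe set, 1420643_at, read 8.28, 8.47, 8.42 and 8.40 in control total and 8.51, 8.49, 8.48 and 8.48 in control polysomal RNA. The polysomal arrays lay just above the total arrays, by 0.10 ± 0.066 log2 units, which did not pass (limma adjusted p 0.225). It passed with equal array medians (0.19, adjusted p 0.0176) and with quantile normalisation over all arrays (0.16, adjusted p 0.048), and the mean of both Lfng probe sets turned the sign (-0.06). The second probe set, 1449943_at, varied between 5.59 and 6.51 over the control arrays and did not pass (limma adjusted p 0.436).

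Rbpj, the DNA-binding partner through which all Notch receptors act, was lower in polysomal RNA by less than the receptors. On 1448957_at the control total arrays read 8.32, 8.31, 8.29 and 8.25 and the control polysomal arrays 7.90, 7.92, 7.84 and 7.92. The groups were tight and separate, and the fall was 1.32-fold (log2 difference -0.40 ± 0.067, limma adjusted p 5.85e-05). Probe set 1418114_at gave nearly the same difference (-0.41 ± 0.095, limma adjusted p 0.00133).

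The effectors are transcriptional repressors of the basic helix-loop-helix class that Notch signalling turns on. Hes1 read 9.55, 9.67, 9.68 and 9.70 in control total and 10.26, 10.23, 10.28 and 10.34 in control polysomal RNA on 1418102_at. The groups did not overlap, and Hes1 rose 1.54-fold (log2 difference 0.63 ± 0.068, limma adjusted p 3.75e-07). Hey1, a relative of the Hes genes, read 7.50, 7.57, 7.42 and 7.27 in control total and 8.10, 8.09, 8.19 and 8.24 in control polysomal RNA, a 1.64-fold rise without overlap (limma adjusted p 4.93e-07).

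Hes5, the Hes gene most closely tied to Notch activity in neural stem cells, had the largest rise of the 10 genes. Probe set 1456010_x_at read 6.35, 6.56, 6.58 and 6.65 in control total and 7.60, 7.45, 7.63 and 7.52 in control polysomal RNA. Every polysomal array was above every total array, and the rise was 2.02-fold (log2 difference 1.02 ± 0.101, limma adjusted p 1.28e-07). The suffix of this probe set marks probes that can also match other transcripts, but the Hes5 probe set without that suffix, 1423146_at, rose 2.32-fold, from 5.96 ± 0.070 to 7.17 ± 0.082 (SD, n = 4 each, limma adjusted p 2.53e-08).

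**Figure D2:**
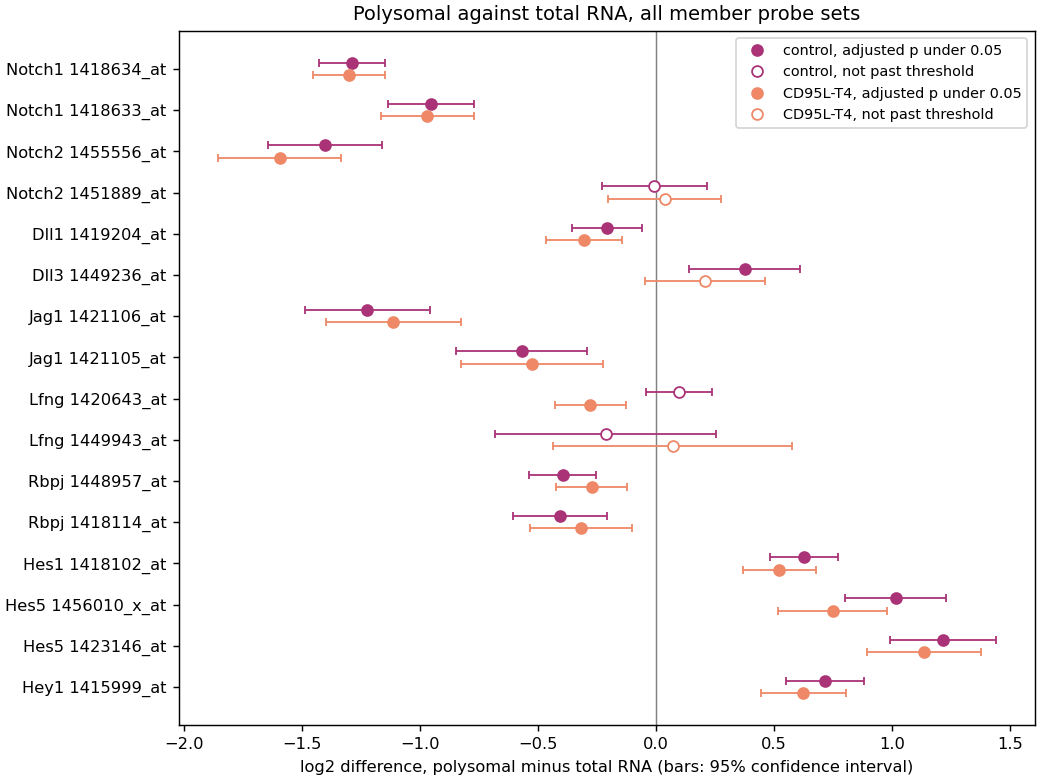
Difference of polysomal minus total RNA in log2 units for all 16 member probe sets, in control and in CD95L-T4 cultures, with 95% confidence intervals from limma. The 4 effector probe sets lie above 0 and the main probe sets of Notch1, Notch2, Jag1, Dll1 and Rbpj below it in both cultures, and the brighter Lfng probe set lies below 0 only with its CD95L-T4 value.

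In the cultures given CD95L-T4 the same division was measured. Here 13 of 16 member probe sets passed in limma, 4 higher and 9 lower, against 51.3% of all probe sets, 26.7% higher and 24.6% lower. Values of 14 of the 16 did not overlap, against 47.7% of all probe sets. Notch1 fell 2.47-fold (limma adjusted p 5.41e-10), Notch2 3.02-fold (1.24e-08) and Jag1 2.17-fold (1.93e-06) on their brighter probe sets. Hes1 rose 1.43-fold (limma adjusted p 1.04e-05), Hey1 1.54-fold (7.52e-06) and Hes5 1.68-fold and 2.19-fold on its probe sets (1.51e-05 and 2.16e-07). Dll1 fell 1.24-fold (limma adjusted p 0.00239) and Rbpj 1.21-fold and 1.25-fold on its probe sets (0.00374 and 0.0143). Without CD95L-T4 polysomal replicate 2, 12 of 16 passed, against 49.6% of all probe sets. The second Rbpj probe set then missed the threshold (1.22-fold lower, limma adjusted p 0.0511). Dll3 was 1.15-fold higher and did not pass (limma adjusted p 0.166), although its arrays did not overlap.

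Lfng passed here and not in control cultures. Its CD95L-T4 total arrays read 8.57, 8.55, 8.47 and 8.58 and its CD95L-T4 polysomal arrays 8.33, 8.31 and 8.15 on 1420643_at. All polysomal arrays were lower, by 1.21-fold (limma adjusted p 0.00306). The mean of both Lfng probe sets did not pass (-0.11, adjusted p 0.57). The test of the difference between cultures is the interaction given further on.

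The second comparison asked what CD95L-T4 did to the level of each gene in total RNA. No member probe set passed in limma (0 of 16, as for 0% of all probe sets), and the differences ran from -0.23 to 0.15 log2 units with a median of 0.03. One of 16 had an unadjusted p under 0.05, against 3.74% of all probe sets. It was Lfng, 0.15 ± 0.066 log2 units higher with CD95L-T4 (unadjusted p 0.0365, limma adjusted p 0.997), and a control and a CD95L-T4 array both read 8.47. Its other probe set was 0.23 log2 units lower.

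Dll1 was the only member probe set whose total RNA arrays did not overlap, against 2.52% of all probe sets. It read 7.44 to 7.50 in control and 7.56, 7.55, 7.54 and 7.75 with CD95L-T4, a difference of 0.13 ± 0.070 log2 units that did not pass (limma adjusted p 0.997). Of the 4 treated arrays, 3 lay just above the highest control and replicate 4 stood clear of them. Notch1 and Notch2 stood at 10.84 ± 0.041 and 8.24 ± 0.132 (SD, n = 4) with CD95L-T4, against 10.84 ± 0.037 and 8.19 ± 0.051 in control. Among the effectors, Hes1 was 9.55 ± 0.066 against 9.65 ± 0.068, Hey1 7.47 ± 0.103 against 7.44 ± 0.129, and Hes5 6.40 ± 0.068 against 6.54 ± 0.129 (SD, n = 4), and none of these passed.

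In polysomal RNA the effectors Hes5 and Hes1 and the fringe gene Lfng read lower with CD95L-T4, by 0.20 to 0.40 log2 units, but no member passed the threshold. Again 0 of 16 passed in limma, as for 0% of all probe sets. An unadjusted p under 0.05 was reached by 5 of 16, 1 higher and 4 lower, against 9.65% of all probe sets, 4.52% higher and 5.14% lower. These 5 were both Hes5 probe sets, Lfng, Hes1 and Rbpj. Groups did not overlap for 3 of 16, Lfng, Hes1 and Rbpj, against 5.42% of all probe sets.

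**Figure D3:**
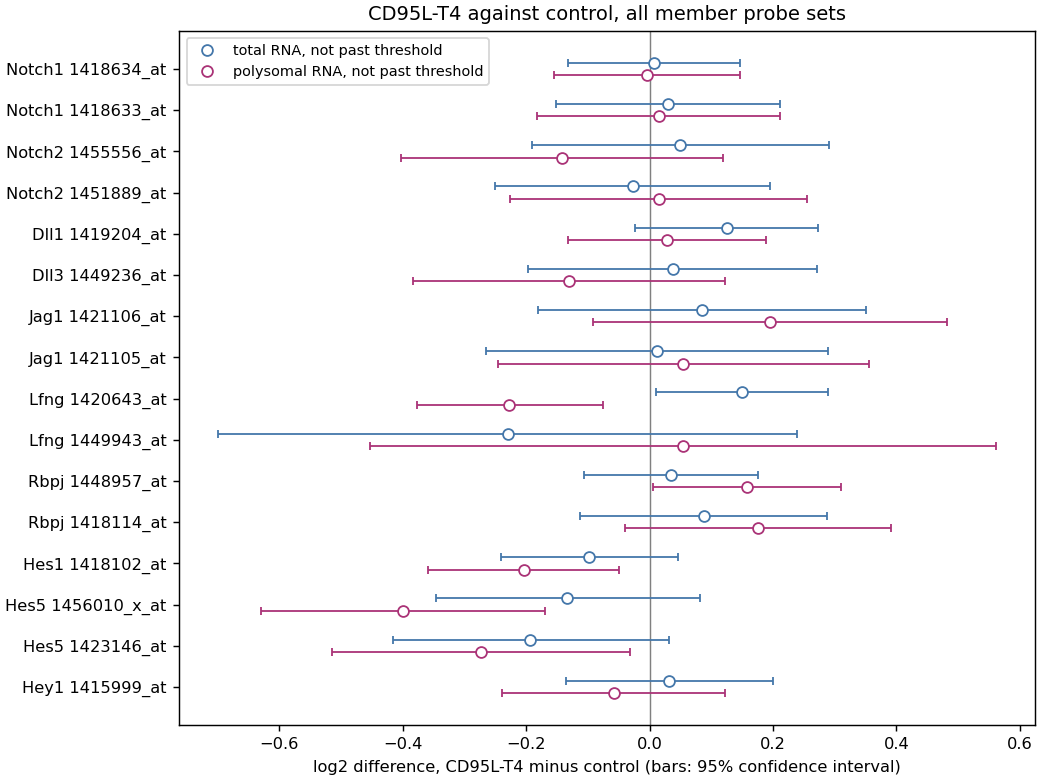
Difference of CD95L-T4 minus control in log2 units for all 16 member probe sets, in total and in polysomal RNA, with 95% confidence intervals from limma. The differences run from -0.23 to 0.15 in total and from -0.40 to 0.20 in polysomal RNA, and most intervals include 0. In polysomal RNA those of both Hes5 probe sets, of Hes1 and of the brighter Lfng and Rbpj probe sets exclude 0. In total RNA only that of the brighter Lfng probe set does. The intervals are not adjusted for the number of probe sets, and no difference passed the adjusted threshold.

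Hes5 read 7.60, 7.45, 7.63 and 7.52 in control polysomal RNA and 6.89, 7.45 and 7.11 with CD95L-T4 on 1456010_x_at. Replicate 2, at 7.45, met the lowest control array, and the other 2 treated arrays lay below all controls. The difference was -0.40 ± 0.109 log2 units, with an interval of -0.63 to -0.17 (unadjusted p 0.00194, limma adjusted p 0.466). The other Hes5 probe set repeated the order, with 6.66, 7.16 and 6.87 against 7.11, 7.13, 7.29 and 7.15 in control (-0.27 ± 0.114, limma adjusted p 0.494).

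Replicate 2 is the array with the high poly-A control signal. Without it, which leaves 2 treated arrays against 4 controls, both Hes5 probe sets passed: 1456010_x_at fell 1.46-fold (log2 difference -0.55 ± 0.095, limma adjusted p 0.00925) and 1423146_at fell 1.32-fold (limma adjusted p 0.0437). They were the only 2 of 16 to pass in that fit, in which 6.13% of all probe sets passed, 2.96% as lower. The call on Hes5 therefore depended on this 1 array. Hey1 differed by -0.02 in that fit, with an interval of -0.21 to 0.18. The 2 treated arrays left in it include replicate 3, the array with the high actin value. With replicate 3 left out instead, the Hes5 differences were -0.38 and -0.26 (limma adjusted p 0.585 and 0.667). The part of RNA quality in the Hes5 difference was not tested.

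Hes1 read 10.26, 10.23, 10.28 and 10.34 in control polysomal RNA and 10.13, 10.14 and 9.95 with CD95L-T4. All 3 treated arrays were below all controls, by 0.20 ± 0.074 log2 units in the mean, with replicate 3 the lowest (unadjusted p 0.013, limma adjusted p 0.476). The difference was -0.24 without replicate 2 (limma adjusted p 0.0826) and -0.14 without replicate 3, the array with the high actin value (limma adjusted p 0.682). The part of RNA quality in it was not tested. Hey1, the third effector, read 8.10, 8.09, 8.19 and 8.24 in control and 8.18, 8.01 and 8.10 with CD95L-T4, with full overlap and a difference of -0.06 ± 0.086.

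Lfng read 8.51, 8.49, 8.48 and 8.48 in control polysomal RNA and 8.33, 8.31 and 8.15 with CD95L-T4. The controls lay within 0.03 of each other and all treated arrays were lower (-0.23 ± 0.071, unadjusted p 0.00556, limma adjusted p 0.473; -0.25 and adjusted p 0.063 without replicate 2). Replicate 3 was again the lowest, and without it the difference was -0.17 (limma adjusted p 0.628). The dimmer Lfng probe set did not repeat this, with 5.95 ± 0.447 (SD, n = 3) against 5.89 ± 0.210 (SD, n = 4). Rbpj was the member that was higher: 8.05, 7.94 and 8.17 with CD95L-T4 against 7.90, 7.92, 7.84 and 7.92 in control (0.16 ± 0.072, unadjusted p 0.0419, limma adjusted p 0.506), 0.22 without replicate 2 (adjusted p 0.0863) and 0.10 without replicate 3 (adjusted p 0.771). Its second probe set was higher by a like amount, 0.18 ± 0.102, with an unadjusted p of 0.104 and overlapping arrays.

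The receptors and the ligands showed no such order in polysomal RNA, and none of their 8 probe sets had an unadjusted p under 0.05. Notch1 differed by 0.00 log2 units on its brighter probe set, with an interval of -0.16 to 0.15. Notch2 read 6.58, 6.33 and 7.02 with CD95L-T4 against 6.67 to 6.90 in control, and its treated arrays lay on both sides of the controls. Its difference of -0.14 ± 0.123 rested on single arrays: it was 0.02 without replicate 2 (limma adjusted p 0.964) and -0.33 without replicate 3 (limma adjusted p 0.585). Jag1 was 0.20 ± 0.136 higher, Dll1 0.03 higher and Dll3 0.13 lower, and all 3 overlapped with control.

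The third comparison asked whether the CD95L-T4 difference itself was unlike between the fractions. In limma 0 of 16 member probe sets passed this interaction test, as for 0% of all probe sets. One of 16 had an unadjusted p under 0.05, against 4.38% of all probe sets. It was the brighter Lfng probe set, whose CD95L-T4 difference was 0.15 in total and -0.23 in polysomal RNA, so that the interaction was -0.38 ± 0.097 (unadjusted p 0.00124, limma adjusted p 0.897). Without CD95L-T4 polysomal replicate 2 it was -0.40 (limma adjusted p 0.105), the dimmer Lfng probe set gave 0.28 ± 0.327, and the mean of both gave -0.05. The Hes5 interaction was -0.27 ± 0.149 on 1456010_x_at (unadjusted p 0.0898) and -0.08 ± 0.156 on 1423146_at (unadjusted p 0.611). Without replicate 2 these were -0.42 and -0.21 (limma adjusted p 0.135 and 0.512).

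The division seen between effectors and receptors in control cultures was then set beside the rest of the pathway. Of 74 other listed pathway genes 64 were measured, each by its brightest probe set. In polysomal against total RNA of control cultures 42 of the 64 passed in limma, 23 higher and 19 lower, against 56.7% of all 12393 genes, 33.5% higher and 23.2% lower. The median over the 64 was 0.13 log2 units and over all genes 0.10.

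Other receptors and ligands had 5 of 10 passing, 2 higher and 3 lower, against 56.7% of all genes, 33.5% higher and 23.2% lower. Dner, a transmembrane Notch ligand of neurons, fell 3.57-fold (limma adjusted p 1.38e-10), from 10.88 ± 0.047 to 9.04 (n = 4 each). Notch3 fell 1.89-fold (9.8e-07) and Cntn1, a membrane adhesion protein that can bind Notch, 2.07-fold (8.42e-07). Notch4 went the other way and rose 2.66-fold (limma adjusted p 4.42e-08) from a dim signal of 4.91 ± 0.154, and Jag2 rose 1.23-fold (0.0239).

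Enzymes that modify and cut Notch had 9 of 11 passing, 3 higher and 6 lower, against 56.7% of all genes. The sheddases Adam10 and Adam17, which make the first cut after ligand binding, fell 2.92-fold (limma adjusted p 4.71e-10) and 2.71-fold (2.4e-10). Ncstn, which encodes the gamma-secretase subunit nicastrin, fell 2.33-fold (limma adjusted p 4.83e-10), while Psenen, a small subunit of the same complex, rose 1.49-fold (8.8e-06). Mfng, the Manic fringe relative of Lfng, rose 1.30-fold (limma adjusted p 0.00137). Subunits of 1 complex therefore lay on both sides.

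Genes for trafficking and turnover had 8 of 14 passing, 5 higher and 3 lower, near the 56.7% of all genes. Dtx3 rose 1.87-fold (limma adjusted p 8.29e-08) and Neurl1a, a ubiquitin ligase for Notch ligands, 1.61-fold (7.96e-06). Aak1, a kinase of endocytic adaptors, fell 2.06-fold (1.3e-07) and Epn2, an endocytic adaptor, 1.20-fold (0.00417). Nuclear cofactors had 11 of 16 passing, 4 higher and 7 lower, against the same 56.7%. Among them Spen, a corepressor that binds RBPJ, fell 2.23-fold (limma adjusted p 1.82e-05), and the Groucho-family corepressors Tle2 and Tle3 fell 1.61-fold (3.94e-07) and 1.56-fold (0.0072). Tle5, a short member of that family, rose 2.12-fold (limma adjusted p 4.48e-08) and Cir1, an RBPJ corepressor, 1.66-fold (5.91e-07).

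The list nearest in kind to Hes1, Hes5 and Hey1 holds other Hes and Hey genes, Id genes and proneural factors. In control cultures 9 of its 13 genes passed, all higher, against 33.5% of all genes higher, and the lowest difference in this list was 0.18. The list was chosen with earlier results of these data known, so it gives no independent support to the division. The 6 endothelial markers, all below the 50th percentile, likewise read higher in polysomal RNA of control cultures, by 0.09 to 0.49 log2 units. The microglial markers ran from -0.01 to 0.53 and the mesenchymal markers from -0.05 to 0.36. Atoh1 and Neurog2 of the Hes, Hey, Id and proneural list were dim as well. The part of signal level in the direction of this list was not tested. Id2, an inhibitor of proneural factors, rose 2.37-fold (limma adjusted p 3.27e-09) and Hes6, which opposes Hes1, rose 2.09-fold (1.16e-09). In CD95L-T4 cultures 6 of the 13 passed, all higher, against 51.4% of all genes passing and 29.6% higher. Without polysomal replicate 2, 5 of the 13 passed, all higher, against 6172 of all 12393 genes, 3620 of them higher. The list was not one-sided in CD95L-T4 cultures. With all arrays its differences ran from -0.20 to 1.30 log2 units, with a median of 0.16 against 0.32 in control cultures.

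**Figure D4:**
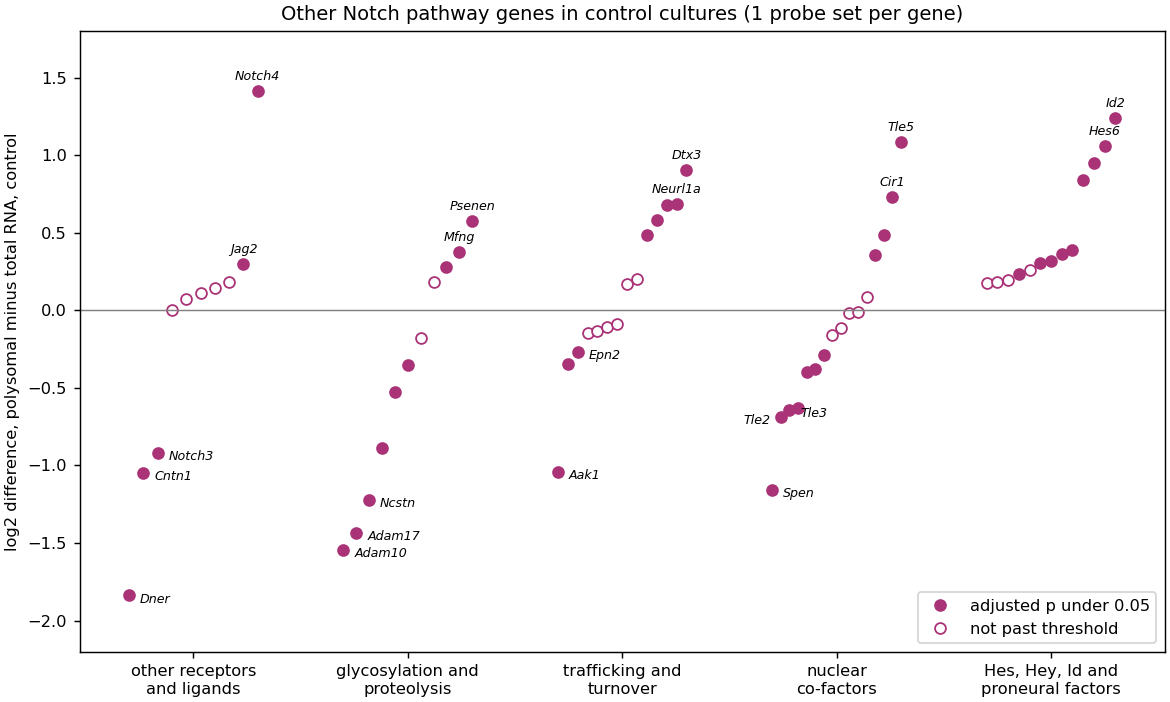
Difference of polysomal minus total RNA in control cultures, in log2 units, for 64 other Notch pathway genes in 5 lists, sorted within each list; filled points passed an adjusted p of 0.05 in limma and named genes are those given in the text. The 13 Hes, Hey, Id and proneural genes all lie above 0, and the other 4 lists hold passing genes on both sides.

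Under CD95L-T4 0 of the 64 genes passed in limma in total RNA, in polysomal RNA or in the interaction test, as for 0% of all genes. An unadjusted p under 0.05 was reached by 5 of 64 in total RNA, against 3.44% of all genes, and by 4 of 64 in polysomal RNA, all lower, against 9.49% of all genes, 5.39% lower. The interaction test gave 5 of 64, all lower, against 3.99% of all genes, 2.66% lower. Without CD95L-T4 polysomal replicate 2, 1 of the 64 passed in polysomal RNA, Id1, another inhibitor of proneural factors, with a log2 difference of -0.31 (limma adjusted p 0.0362), against 6.37% of all genes.

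For the 5 members with the largest fraction difference, the genes with the most similar course over the 15 arrays were sought among the 12393 genes, by the root mean square difference after each gene's own mean was subtracted. Notch1 was closest to Sptan1, at 0.0469 log2 units, and Anapc1, at 0.0586, where the median gene was 0.707 away. Notch2 was closest to Gria2 (0.106) and Mki67 (0.123), with a median of 0.817. Jag1 was closest to Ssr1 (0.144) and Extl2 (0.146), with a median of 0.677. Hes5 was closest to Isca1 (0.0962) and Gucd1 (0.106), with a median of 0.477, and Hey1 to Ccdc90b (0.0624) and Eapp (0.072), with a median of 0.345. None of these 10 neighbours was on a Notch list. Those lists hold only 10 members and 64 other measured genes of the 12393, so no conclusion is drawn from this. The difference between fractions makes up most of each course, so the likeness describes that division first.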

How the data were processed

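Log2 array signals, normalised between arrays by the authors, were taken from the deposited series table; the method was not given in the sources used here. Probe sets were named through GEO's platform annotation, and 20380 of the 22626 tested had 1 gene. The 64 Affymetrix controls were left out. Groups came from the sample titles. Values were fitted with limma 3.58.1 in R 4.3.3, 1 mean per group over 15 arrays, empirical Bayes moderation (5.78 prior degrees of freedom), two-sided tests and Benjamini-Hochberg adjustment over all tested probe sets; the script was tested on simulated data. The number of arrays limits the precision. No pair of arrays was identical.

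All 10 genes were named with every probe set. Of each pathway list, up to 2 rises and 3 falls were named by size from the genes that passed in control cultures without overlap, as was any gene passing under treatment. The neighbours were chosen by the rule stated with them, and at most 3 marker genes a list were named. Id1, Olig1 and Olig2 were named after their values were seen. Members and lists were chosen with earlier results of these data known. Replicate numbers recur across groups, but deviations of same-numbered arrays correlated from -0.234 to 0.197, so they were not treated as pairs. The alternatives were other normalisations, dim-probe filters, variance settings, a replicate block, probe-set averaging and leaving out each array.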

Additional observations from a re-analysis of the deposited data

Results flagged for a closer look

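One array stood far from the others of its group. For Dll1, replicate 4 of CD95L-T4 total RNA read 7.75 log2 units, where the other 3 replicates read 7.54 to 7.56, and the gap made up 0.905 of the range of the group. It was 1 of 48 groups of member values examined in this way (2.08%), and chance alone gives about 1 in 20.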

How the results depend on the processing

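In total RNA and in the interaction test no member passed in any setting run. Between the fractions with CD95L-T4, 12 or 13 of 16 members passed. It was 12 when replicate 2 of CD95L-T4 polysomal RNA was left out, under array weights, with equal array medians and with quantile normalisation of all arrays together. Of all 22626 probe sets, 11231, 10362, 12665 and 11785 passed in these settings, in that order, against 11603 in the main fit. Without the dimmest 50% of probe sets, 9 of the 9 members left passed, as did 8616 of the brighter 50% of all 22626 probe sets. Leaving out 1 array at a time gave 0 to 2 passing members for CD95L-T4 in polysomal RNA, and 0 to 1 of the other pathway genes. The highest value in each came without CD95L-T4 polysomal replicate 2, where 6.13% of all probe sets and 6.37% of all genes passed. In control cultures the same filter left 9 members to test between the fractions, and 8 passed, as did 8867 of the brighter 50% of all probe sets. Most probe sets kept by this filter therefore passed in both fraction comparisons. No called difference changed direction. Among single genes, 5 of 177 values of the control fraction comparison and 3 of 177 of the polysomal treatment comparison changed their call or moved by more than the replicate spread, as named with Dll1, Lfng, Hes5 and Notch2.

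With equal array medians, 63.3% of all calls between the fractions in control cultures were higher, against 53.1% as deposited, and 62.1% against 52.1% with CD95L-T4. A replicate block gave 0 passing members in either treatment comparison and in the interaction, 13 in each fraction comparison and 43 of 64 pathway genes in control cultures. With the block over all arrays, 12731 of all 22626 probe sets passed between the fractions in control cultures and 11597 with CD95L-T4. In the treatment comparisons and the interaction 0 of all probe sets passed with it. Over the 4 pairs of groups, an array was set against the arrays of the other group 14 times, and in 1 of these it correlated best with its own number. Averaging probe sets was not applicable to counts of probe sets.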

Other observations

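Proneural genes, which Hes repressors hold back, were not described above for CD95L-T4. In total RNA Atoh1 was 0.44 ± 0.094 log2 units higher with CD95L-T4 (unadjusted p 0.000216, limma adjusted p 0.997) and Neurog2 0.37 ± 0.113 higher (unadjusted p 0.00419, limma adjusted p 0.997). Neither passed, and both were dim, at percentiles 24.4 and 18.2. In polysomal RNA the same genes differed by -0.08 ± 0.101 and -0.01 ± 0.122. Neurog1, the other proneural gene measured, did not reach an unadjusted p of 0.05 in total RNA. Dll4 and Neurl1a, both higher, and Mfng, lower, were the other pathway genes with an unadjusted p under 0.05 there. The 5 pathway genes with an unadjusted p under 0.05 in the interaction test were Atoh1, Neurog1, Neurog2, Notch4 and Dtx3, and none passed in limma (adjusted p 0.897 each). These genes were picked out after their values were seen.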
